A study of Homo sapiens with 2 samples.

Results

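The 6 secreted chemokines CXCL1, CXCL2, CXCL3, CXCL5, CXCL8 and CCL2 were taken by gene name from a table of transcript levels and a table of skipped exons of paclitaxel-treated and control A549 cells. Of the 6 genes, 5 had a transcript in the expression table, with 6 of its 993 transcripts, and 1 gene, CCL2, had an event in the skipped-exon table, 1 of 35827 events. CXCL2 had no row in either table.

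A549 is an established human lung adenocarcinoma cell line. One culture received 7.22 nM paclitaxel, a drug that binds polymerized tubulin and disturbs the mitotic spindle, for 72 h, and the control received DMSO for the same time, both in F12K medium with serum. Each condition was sequenced as 1 library, so no value below has a replicate, a standard deviation or a test across samples. Levels are given in FPKM, which the authors estimated per transcript with Cufflinks: fragments scaled by transcript length and by the number of mapped fragments, so that levels can be compared between genes. The depth of the libraries is unknown from these values. The deposited table holds 993 transcripts, each of which passed the authors' test at an adjusted p of 0.05, and every transcript in it that was above 0 in both libraries differed by at least 1.52 on the log2 scale. A gene without a row therefore has no level here, and its response is not known.

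Chemokines are small secreted proteins that draw leukocytes along a gradient by way of G protein-coupled receptors. CXCL1, CXCL2, CXCL3, CXCL5 and CXCL8 belong to the CXC ligands that bind CXCR2 and attract neutrophils, and CXCL8, also called interleukin 8, binds CXCR1 as well. CCL2, a CC ligand also called MCP-1, binds CCR2 and attracts monocytes. Many epithelial and tumor cells transcribe these genes after NF-κB activation, and the short-lived mRNAs of several of them carry AU-rich elements. They are also among the factors that senescent cells secrete.

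A stretch around a κB motif, the kind of sequence that NF-κB can bind, is shown first because 5 chemokine promoters share its letters. Promoters of 250 bases before to 50 bases after each transcription start came from RefSeq (GRCh38.p14) and were found for 5 of the 6 genes, CCL2 not among them. Each of the 5 held the letters GGAATTTCC once and on the strand of the gene. The 30 bases around it are printed 5′ to 3′ with the 9 letters in capitals.
CXCL1 (chr4:73869305-73869334, plus strand): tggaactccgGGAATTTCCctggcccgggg
CXCL2 (chr4:74099253-74099282, minus strand): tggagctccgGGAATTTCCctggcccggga
CXCL3 (chr4:74038748-74038777, minus strand): tggagctccgGGAATTTCCctggcccggcc
CXCL5 (chr4:73998748-73998777, minus strand): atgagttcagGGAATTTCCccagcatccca
CXCL8 (chr4:73740468-73740497, plus strand): tgcaaatcgtGGAATTTCCtctgacataat

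The motif began 78 bases before the start site in CXCL1 and CXCL3, 77 bases before it in CXCL2, 90 in CXCL5 and 91 in CXCL8. In 4 of the 5 promoters the base in front of the motif was G, and in CXCL8 it was T. Without gaps, the windows of CXCL1 and CXCL2 shared 28 of 30 bases, CXCL2 and CXCL3 shared 28, and CXCL1 and CXCL3 shared 27, whereas CXCL5 and CXCL8 shared 14. CXCL2, which had no row in the expression table, thus carried the same letters as its neighbors that did. All 5 promoters also held ATAAAA, which began 30 or 31 bases before the start. Of the 5, the CXCL8 promoter alone held TGANTCA, an AP-1 motif, from 137 bases before the start. A match is a run of letters and does not show that a factor was bound.

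Counted on both strands, GGAATTTCC stood in 2.02% of 494 promoters of genes higher with paclitaxel, in 0.236% of 423 promoters of genes lower with paclitaxel, and in 0.461% of all 35116 promoters. A gene may have several promoters in this count. Because the motif was picked as one that the chemokine promoters share, the chemokines raise the share of the higher genes by that choice. No share was computed without them, and the share of the lower genes rests on 1 promoter. The genes of the expression table with such a promoter numbered 10, of which 9 were higher, beside 458 of all 993 transcripts. Of these 9, 4 were the chemokines CXCL1, CXCL3, CXCL5 and CXCL8, through which the motif was picked. The lower one was BRCA2, a DNA repair gene, with 0.179 FPKM with paclitaxel and 1.68 FPKM in the control. BRCA2 and the other 5 higher genes were named after their values were seen. The 5 were the adhesion molecule ICAM1, the autophagy receptor OPTN, the costimulatory receptor TNFRSF9, the splicing regulator MBNL2 and GFRA1, a receptor subunit for a neurotrophic factor. TGANTCA stood in 10.9% of promoters of the higher genes, 2.60% of those of the lower genes and 7.71% of all promoters. ATAAAA stood in 13.4%, 6.15% and 16.0% of the same 3 sets, so that it was no more frequent among higher genes than among all genes. Each of these motifs was rarest in the promoters of the lower genes.

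All 6 chemokine transcripts of the expression table were at higher levels with paclitaxel. The ratios spanned a 6.10-fold range, with CXCL8 at the top and CCL2 at the bottom. Among all 921 transcripts above 0 in both libraries, 45.4% were at least 2-fold higher with paclitaxel, beside 6 of 6 here. Since no log2 ratio in the table was smaller than 1.52 in size, this minimum takes in every higher transcript. At least 4-fold higher were 5 of the 6 transcripts, beside 40.0% of all. Among the 418 higher transcripts, 368 were at least 4-fold higher, so that 5 of 6 is no larger a share. The median log2 ratio of the 6 was 3.24, the median over all 921 transcripts was -1.93, and the median over the 418 higher transcripts was 2.92, so that the chemokine median lay near that of the higher transcripts.

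**Figure D1:**
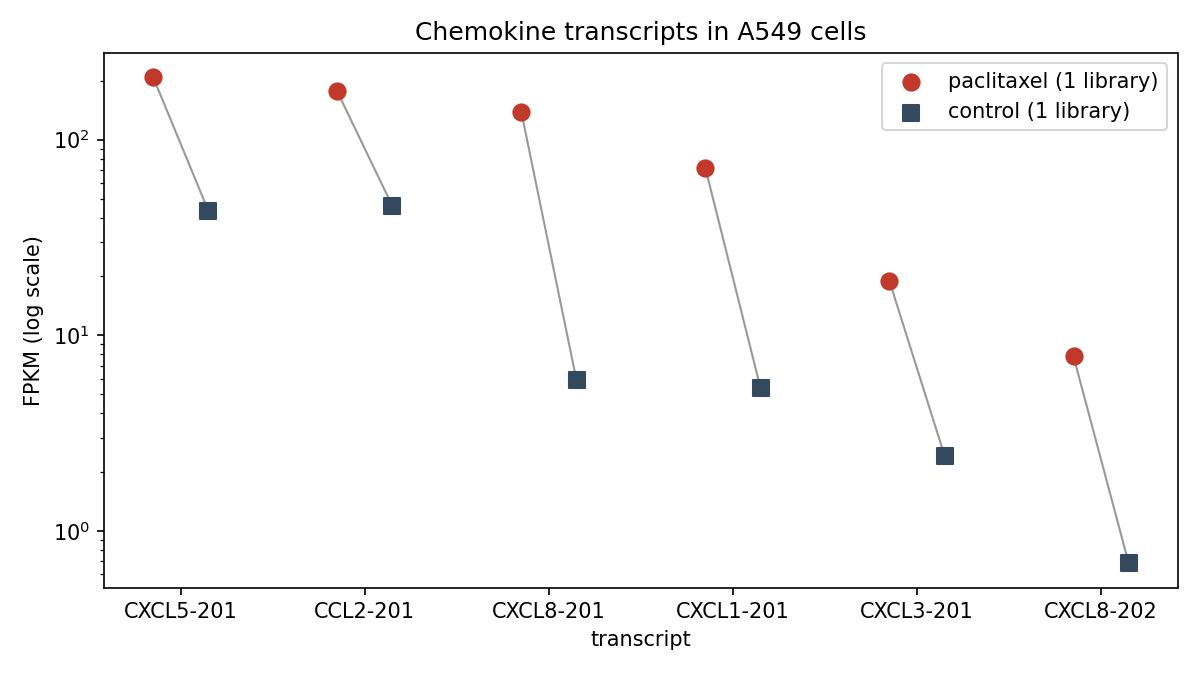
FPKM (log scale) of the 6 chemokine transcripts, ordered by their level with paclitaxel; each circle is the single paclitaxel library and each square the single control library, joined by a line. All 6 circles lie above their squares, and the steepest line is that of CXCL8-201, at 139 FPKM with paclitaxel against 5.89 FPKM in the control.

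CXCL8, a strong neutrophil attractant, lies on the plus strand of chromosome 4, at 73740506 to 73743716 in the authors' table (hg38). Its main transcript, CXCL8-201 (ENST00000307407), stood at 139 FPKM in the paclitaxel library and at 5.89 FPKM in the control library. This is a 23.6-fold difference, or a log2 ratio of 4.56, the 37th largest of 921 and the largest among the chemokines. A gap of this size cannot be set against a spread, because each condition has 1 library. In bulk RNA, more transcript per cell and more cells that make the transcript cannot be told apart, which holds for every gene below.

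A second CXCL8 transcript, CXCL8-202 (ENST00000401931), had 7.80 FPKM with paclitaxel and 0.683 FPKM in the control, an 11.4-fold difference with a log2 ratio of 3.51. Because its control level is low, this ratio depends on the scale: with 1 FPKM added to both libraries the log2 ratio was 2.39, below the 2.55 of CXCL3-201 on the same scale. In GENCODE 44 it has 3 exons instead of 4. Its exon 3 runs on for 298 bases past the end of exon 3 of CXCL8-201, and the last exon of CXCL8-201, of 1268 bases, is missing from it. The reading frame gives 95 residues, against 99 for CXCL8-201, and the 2 transcripts share 374 of the 700 bases of CXCL8-202. Fragments from the shared bases had to be divided between them by the estimate.

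The shorter form made up a smaller part of CXCL8 with paclitaxel. It accounted for 5.32% of the summed FPKM of both transcripts in the paclitaxel library and for 10.4% in the control library. In other words, CXCL8-201 stood 17.8 times above CXCL8-202 with paclitaxel and 8.62 times above it in the control. Summed over both, CXCL8 reached 147 FPKM with paclitaxel and 6.57 FPKM in the control, a 22.3-fold difference. Whether the change in share exceeds the error of the estimate was not tested, since FPKM values keep no read counts.

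CXCL1, first described as a growth factor of melanoma cells, showed the next largest ratio by gene. Its transcript CXCL1-201 (ENST00000395761, chromosome 4, 73869393 to 73871308) stood at 71.6 FPKM with paclitaxel and at 5.37 FPKM in the control. It was 13.4-fold higher with paclitaxel, with a log2 ratio of 3.74. In the control, CXCL8-201 and CXCL1 were at similar levels, with a ratio of 1.10 between them, and with paclitaxel CXCL8-201 stood 1.94 times above CXCL1.

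CXCL3, a close relative of CXCL1, was the least abundant of the 5 genes in both libraries. Its transcript CXCL3-201 (ENST00000296026, chromosome 4, 74036589 to 74038689) had 18.9 FPKM with paclitaxel and 2.42 FPKM in the control, which is 7.84-fold with a log2 ratio of 2.97. CXCL1 stood 3.78 times above CXCL3 with paclitaxel and 2.22 times above it in the control.

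The coding sequences of these paralogs are nearly alike. CXCL1 and CXCL3 were identical at 90.7% of aligned coding positions, CXCL1 and CXCL2 at 93.5%, and CXCL2 and CXCL3 at 94.4%. Of all runs of 50 bases in the CXCL1 transcript, 0.533% also stood in CXCL3 and 5.33% in CXCL2. These shares are too small to hold a shared run of 150 bases, the read length. How the estimate divided shortened reads or reads with mismatches is not known, nor is their effect on the levels of CXCL1 and CXCL3.

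CXCL5, which is made by epithelial cells and was first described in a lung epithelial line, was the most abundant chemokine with paclitaxel. CXCL5-201 (ENST00000296027, chromosome 4, 73995642 to 73998677) reached 208 FPKM with paclitaxel and 43.3 FPKM in the control. It was 4.82-fold higher with paclitaxel, with a log2 ratio of 2.27. Its level with paclitaxel was the 11th highest of all 993 transcripts, and the 8th highest of the 458 that were higher with paclitaxel. The difference of 165 FPKM was the largest of the 6 chemokine transcripts, although its ratio was the second smallest.

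CCL2, the monocyte attractant, is the only CC ligand of the group and lies on another chromosome. CCL2-201 (ENST00000225831, chromosome 17, 34255285 to 34257203) stood at 176 FPKM with paclitaxel and at 45.7 FPKM in the control, 3.86-fold apart with a log2 ratio of 1.95. This was the smallest ratio of the group and the only one below 4-fold. In absolute terms its difference, 131 FPKM, was close to the 133 FPKM of CXCL8-201.

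**Figure D2:**
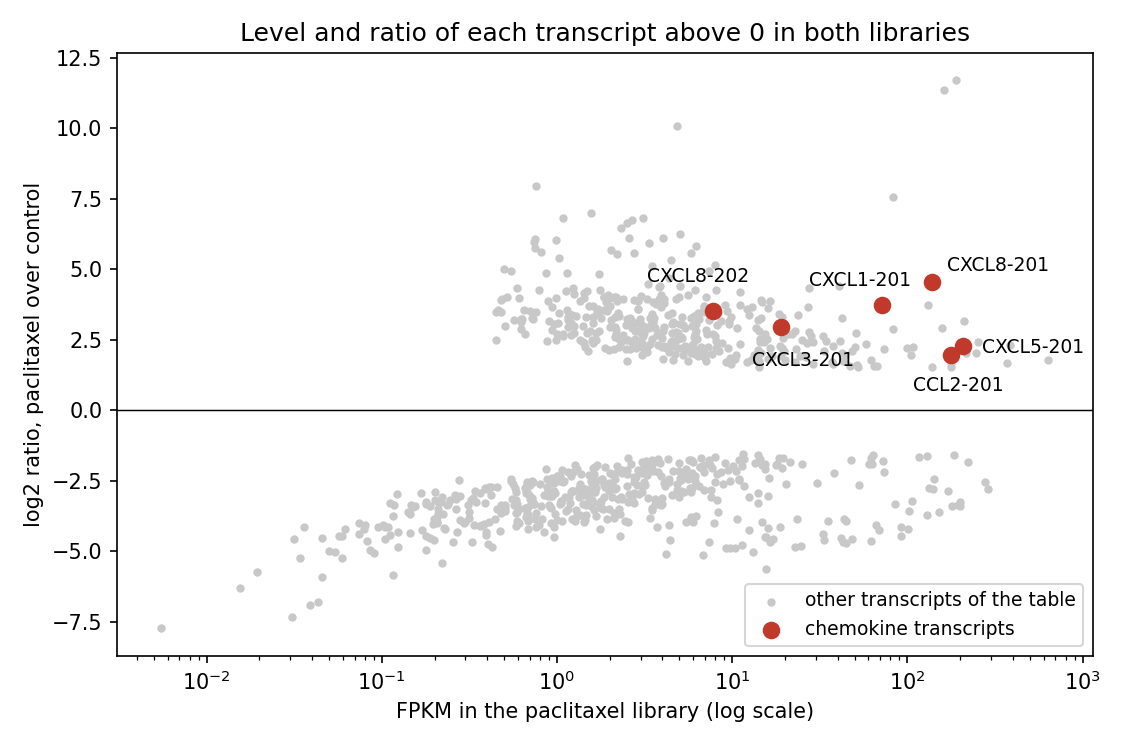
Log2 ratio of paclitaxel over control (y axis) against FPKM in the paclitaxel library (log scale, x axis) for the 921 transcripts above 0 in both libraries, with the 6 chemokine transcripts in red. The empty band around 0 is the range without transcripts in the table, and CXCL8-201 stands above most transcripts of its level while CXCL5-201 and CCL2-201 lie near the lower edge of the higher group.

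The order of the levels differed between the libraries. With paclitaxel it ran from CXCL5 (208 FPKM) through CCL2 (176 FPKM), CXCL8-201 (139 FPKM), CXCL1 (71.6 FPKM) and CXCL3 (18.9 FPKM) to CXCL8-202 (7.80 FPKM). In the control CCL2 came before CXCL5, at 45.7 and 43.3 FPKM, and the other 4 followed in the same order as with paclitaxel. CXCL5 stood 1.18 times above CCL2 with paclitaxel and at 0.947 of CCL2 in the control, so that this change of places rests on small differences that cannot be set against a spread. The gap between CXCL5 and CXCL8-201 was larger, at 1.50 times with paclitaxel and 7.35 times in the control.

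The 6 transcripts together came to 622 FPKM with paclitaxel and 103 FPKM in the control, 6.02-fold apart. CXCL5 and CCL2 made up 61.9% of this sum with paclitaxel and 86.1% in the control, and CXCL8 made up 23.6% and 6.36%. With paclitaxel the chemokines held 7.78% of the summed FPKM of the 458 higher transcripts. Their levels were high for that set, whose median was 3.92 FPKM in the paclitaxel library. The lowest of them, CXCL8-202, ranked 131st of 458 there.

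The 4 CXC genes with values are neighbors. From the start of CXCL8 to the end of CXCL2 the RefSeq annotation spans 359 kb of chromosome 4 with 9 protein-coding genes, all of them CXC chemokine genes. CXCL8, CXCL1, CXCL5 and CXCL3 were in the expression table, and CXCL6, PF4V1, PF4, PPBP and CXCL2 were not. PF4 and PPBP are platelet chemokines, and CXCL6 is a further neutrophil attractant. Within 1 Mb on either side, the expression table held no other gene. Along the cluster the ratios did not follow the distance from CXCL8. CXCL1, 129 kb away, had a log2 ratio of 3.74, CXCL5, 255 kb away, had 2.27, and CXCL3, 296 kb away, had 2.97.

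**Figure D3:**
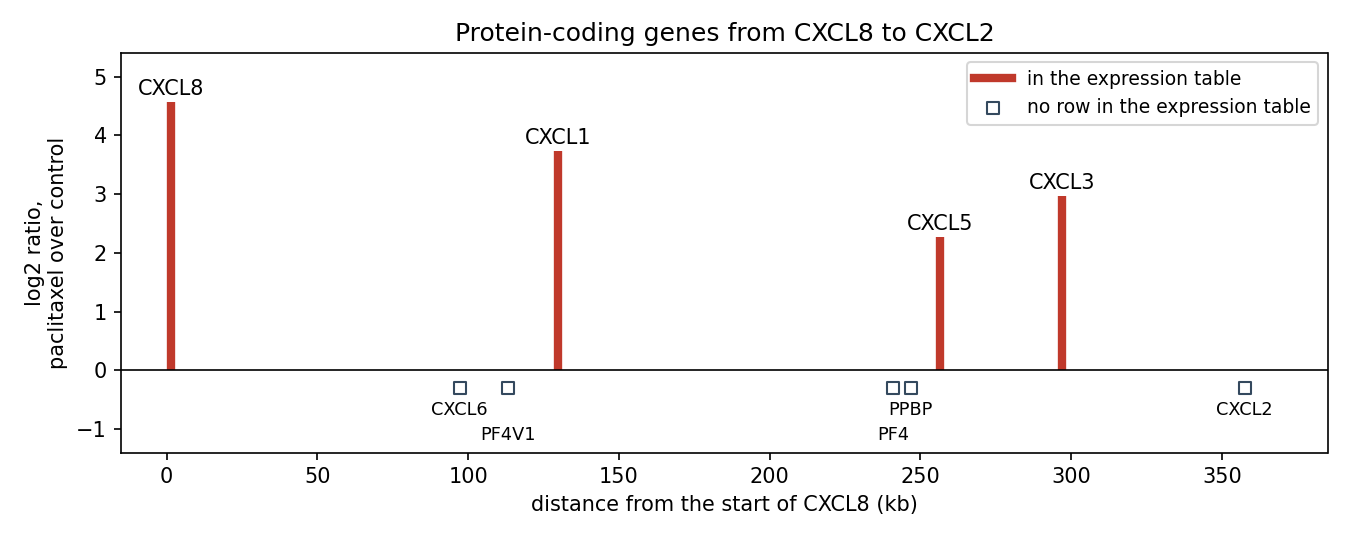
Protein-coding genes between CXCL8 and CXCL2 by their distance from the start of CXCL8 in kb (x axis), with the log2 ratio of paclitaxel over control as a red line for the 4 genes in the expression table (for CXCL8, that of CXCL8-201). Open squares below the line mark the 5 genes with no row and carry no value, and the tallest line, of 4.56, is that of CXCL8.

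The 3′ untranslated regions of the CXC transcripts were rich in AUUUA, the core of AU-rich elements, by which cells shorten the life of cytokine mRNAs. That of CCL2-201 was less so. CXCL5-201 had 11 copies, CXCL8-201 had 9, CXCL3-201 had 7, CXCL1-201 had 6, CXCL8-202 had 3 and CCL2-201 had 1. Per 1000 bases of this region the 5 CXC transcripts had between 5.51 (CXCL5-201) and 10.4 copies (CXCL3-201), and CCL2-201 had 2.66. The median was 2.12 copies per 1000 bases over 411 transcripts higher with paclitaxel, 1.06 over 492 lower transcripts and 1.65 over all 903 with such a region in GENCODE 44. At least 5 copies stood in 32.8% of the higher transcripts and in 15.4% of the lower ones. These are counts of letters in the reference and do not measure the stability of any mRNA.

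The only skipped-exon event of the group lies in CCL2. The skipped exon, chromosome 17, 34256222 to 34256339, is exon 2 of 3 in CCL2-201. Its 118 bases are all coding, out of 297 coding bases before the stop codon. The length is not a multiple of 3, so a transcript without this exon would change its reading frame, which also holds for 58.9% of the 31197 distinct exons in the table. The upstream exon of the event spans 34255285 to 34255425 and the downstream exon 34256722 to 34257203, the same ends as exons 1 and 3 of CCL2-201. The values of each library for this event stand in columns that name a sample 1 and a sample 2 without a condition, and they were not used, so that no inclusion level is given. CXCL1, CXCL3, CXCL5 and CXCL8 have internal exons as well but had no event in this table. Among the 9939 genes with at least 1 event, the median was 3 events, and 28.3% had 1, as CCL2 did. How many genes lack an event was not counted.

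The other genes of the chemokine system gave no values. Of 42 other chemokine ligands, 0 were in the expression table, and of 23 chemokine receptors and related binding proteins, among them CXCR1, CXCR2 and CCR2, likewise 0. Their levels are not known here, since the table holds only transcripts that passed the authors' test.

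Genes listed for the NF-κB pathway and cytokine genes were higher with paclitaxel, in so far as they were in the table. The lists were chosen with earlier results of these data known, and they were not split into activators and targets of NF-κB. Of 40 NF-κB pathway genes, 9 had a transcript in it, and 9 of 9 were higher with paclitaxel, beside 458 of all 993 transcripts. This sets genes, each by its most abundant listed transcript, beside transcripts, and no share per gene was computed. As the table holds called transcripts only, the other genes of the list have no value. The 4 most abundant were SOD2, BIRC3, IRAK2 and PTGS2. SOD2, the mitochondrial superoxide dismutase, had 6 transcripts in the table, 6 of them higher, and its most abundant one stood at 105 FPKM with paclitaxel and 27.3 FPKM in the control. BIRC3, a ubiquitin ligase of the TNF receptor complex, had 28.8 FPKM with paclitaxel and 9.16 FPKM in the control. IRAK2, a kinase downstream of interleukin 1 and Toll-like receptors, had 24.4 FPKM with paclitaxel and 6.36 FPKM in the control. For PTGS2, the inducible cyclooxygenase, 11.1 FPKM with paclitaxel stood against 0.838 FPKM in the control, a log2 ratio of 3.72 that was close to that of CXCL1. The median log2 ratio was 1.98 over the 7 genes that were above 0 in both libraries. TNIP1 and CYLD, both of which restrain NF-κB, were named after their values were seen. Their most abundant listed transcripts had 2.97 and 3.92 FPKM with paclitaxel and were listed at 0 in the control. Transcripts of these genes that are not listed have no level here.

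Of 24 cytokine genes and cytokine receptor genes, 8 were in the table and 8 of 8 were higher with paclitaxel, again beside 458 of 993 transcripts, with a median log2 ratio of 3.98. The median log2 ratio of all 418 higher transcripts was 2.92. The 8 cytokine genes summed to 38.4 FPKM with paclitaxel and 2.06 FPKM in the control, beside 622 and 103 FPKM for the 6 chemokine transcripts. The levels overlapped, since TNFSF15 and IL6 stood above CXCL8-202 with paclitaxel. TNFSF15, a member of the TNF family, had 12.9 FPKM with paclitaxel and 1.03 FPKM in the control. IL6, a cytokine of the acute phase response, had 8.02 FPKM with paclitaxel and 0.226 FPKM in the control. LTB, which encodes lymphotoxin β, had 5.04 FPKM with paclitaxel and 0.0663 FPKM in the control. IL1A, which activates NF-κB through the interleukin 1 receptor, had 3.93 FPKM with paclitaxel and 0.233 FPKM in the control. Of 15 genes for AP-1, C/EBP and related factors, 2 were in the table. ATF3, a stress-induced transcription factor, had 27.4 FPKM with paclitaxel and 1.34 FPKM in the control. EGR1, an immediate early factor, had 10.4 FPKM with paclitaxel and 2.98 FPKM in the control.

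**Figure D4:**
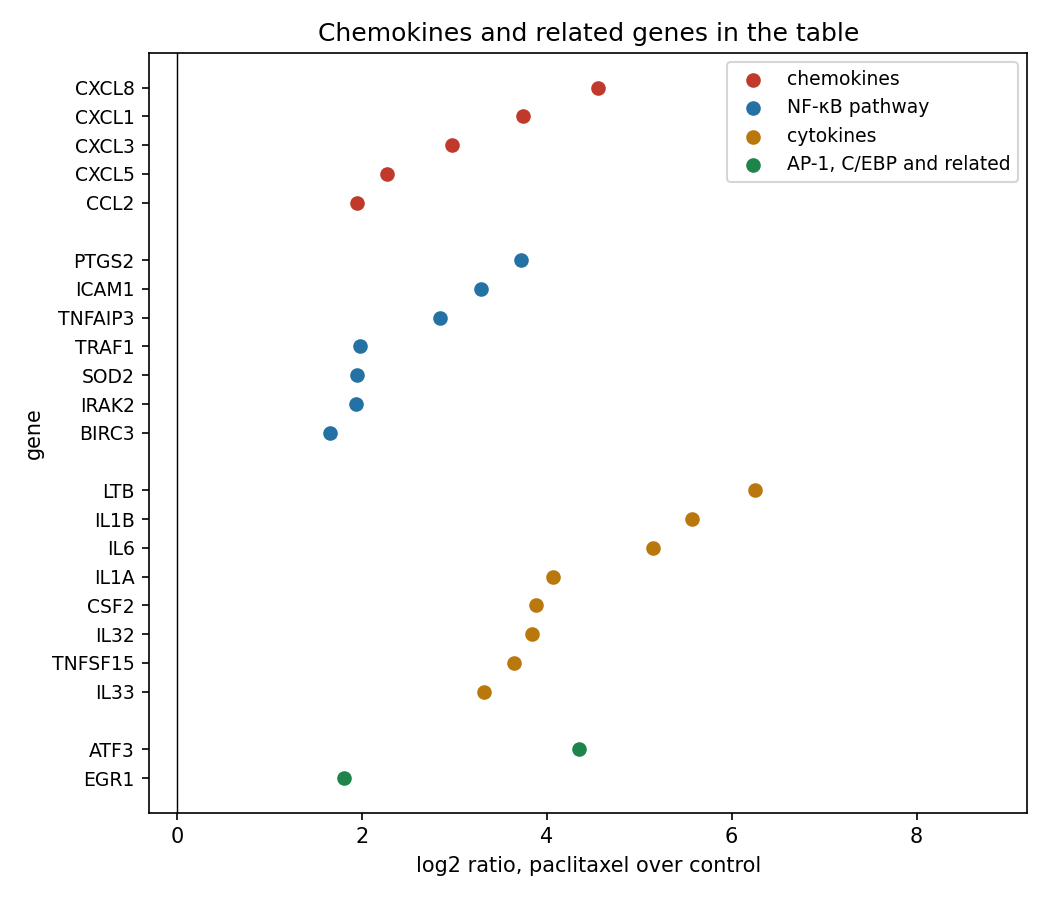
Log2 ratio of paclitaxel over control (x axis) for each gene (y axis) of the chemokines, the NF-κB pathway, the cytokines and the AP-1, C/EBP and related factors that was in the expression table and above 0 in both libraries, given by its most abundant listed transcript. All points lie right of 0; the chemokines run from 1.95 (CCL2) to 4.56 (CXCL8), and the cytokines from 3.32 (IL33) to 6.25 (LTB).

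For each chemokine transcript the non-member genes with the most similar pair of levels were taken, by the distance of log2(FPKM + 1) over the 2 libraries. Nearest to CXCL8-201 was SAT1, the enzyme that acetylates polyamines, with 131 FPKM with paclitaxel and 9.82 FPKM in the control. CXCL1 was nearest to a transcript of SOD2 (51.1 FPKM with paclitaxel and 7.65 FPKM in the control) and to complement C3. CXCL3 was nearest to SQSTM1 and ZMAT3, and CXCL8-202 to CDC42EP4 and RRAD. CXCL5 was nearest to SERPINE2, a secreted protease inhibitor (216 FPKM with paclitaxel and 52.6 FPKM in the control), and to a transcript of RPS19, a ribosomal protein. CCL2 was nearest to TUBA1A, an α-tubulin, and to SERPINE2. With 2 libraries this likeness describes a pair of levels and nothing more.

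Globin genes, markers of red blood cells, were higher with paclitaxel as the chemokines were. Of 10 erythroid markers 3 were in the table, HBA2, HBA1 and HBB, which summed to 458 FPKM with paclitaxel and 0.118 FPKM in the control. The control value of HBB was 0. The genes HBA1 and HBA2 encode the same protein and share most of their sequence, so the split of reads between them is uncertain. The other 7 erythroid markers, such as ALAS2, had no row. Of 16 leukocyte markers, S100A9, a calcium-binding protein of neutrophils that epithelial cells can also make, was the 1 in the table, at 5.85 FPKM with paclitaxel and 0.123 FPKM in the control. Defining leukocyte markers such as PTPRC and CD14 had no row, nor had any of 10 fibroblast and endothelial markers. Of 10 lung epithelial markers 1 was in the table, KRT19, a keratin of simple epithelia, at 107 FPKM with paclitaxel and 22.9 FPKM in the control. Since markers that did not pass the authors' test have no value, the identity of the cells could not be checked further. The source of the globin signal is not known, and whether it bears on the chemokine levels was not tested.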

How the data were processed

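The data come from 1 paclitaxel-treated and 1 control culture of A549 cells, read in pairs of 150 bases. Reads were aligned by the authors to hg38, with MapSplice according to the methods, while GEO's notes list the programs CASAVA 1.8.2, TopHat and Cufflinks. For the annotation release, the sources used here give no name. The deposited FPKM values, which the authors estimated per transcript with Cufflinks, are scaled to transcript length and mapped fragments and keep no read counts, so depth and counting error are unknown. The column marked T was read as the treated library. The authors' own fold changes, p-values and q-values, and the inclusion differences, p-values and FDR of the skipped-exon table, were not used, except to see that the q-value was under 0.05 in 993 of 993 rows. In the skipped-exon table, which has the layout of MATS output, 6 columns of values per library name no condition and were not used.

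Log2 ratios of paclitaxel over control were computed from the FPKM columns without a pseudocount (Python 3.11.15, pandas 2.3.3). The arithmetic was checked on control values multiplied by known factors, which does not test noise or the estimate of transcript levels. Values listed at 0 gave no ratio. A gene of a list was given the value of its listed transcript with the highest FPKM. Table positions were turned into 1-based positions. Promoters came from RefSeq GRCh38.p14, transcript structures from GENCODE 44, in which 948 of 993 transcripts were found, and coding sequences were aligned with Biopython 1.88. Named genes are the 6 chemokines, all other chemokine ligands and receptors in the table, up to 4 genes of each other list by FPKM, all markers in the table, and 2 nearest genes for each chemokine transcript. Of the nearest genes, 1 is not reported here. Further names are marked as chosen after their values were seen. The members, lists and motifs were chosen with earlier results of these data known.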

Additional observations from a re-analysis of the deposited data

How the results depend on the processing

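The number of chemokine transcripts at least 2-fold higher with paclitaxel was 6 with a pseudocount of 1 or 0.1 FPKM, with a minimum of 1 FPKM in whichever library was higher, and after centring on the median of the table. Given ratios of at least 3.86-fold and paclitaxel levels of at least 7.80 FPKM, these settings could not have lowered this count. It was 5 with at least 1 FPKM in both libraries, where CXCL8-202 drops out by construction. Summed per gene, it was 5 of 5 genes. The median log2 ratio, 3.24 as reported, was 2.47 with a pseudocount of 1 FPKM, 3.13 with 0.1 FPKM, 2.97 with at least 1 FPKM in both libraries and also 2.97 when summed per gene. Centred on the table median of -1.93, it was 5.17, but that median covers listed transcripts only and is no estimate of a scaling error between the libraries. No direction changed for any chemokine transcript, and the counts of the other lists and of skipped exons were the same under the alternatives run. With a pseudocount of 1 FPKM the ratio of CXCL8-202 was 2.39 and came below that of CXCL3-201, at 2.55. No replicate could be left out, since each condition has 1 library. No paired analysis was possible because each condition has 1 library. The depth is unknown, so the counting error of values below 1 FPKM, such as that of CXCL8-202 in the control, could not be given.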
